A study of Saccharomyces cerevisiae with 9 samples.

Results

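The genes described here encode the enzymes that carry squalene to the C-4 demethylated sterols in *Saccharomyces cerevisiae*. They are ERG1 (YGR175C), ERG7 (YHR072W), ERG11 (YHR007C), NCP1 (YHR042W), ERG24 (YNL280C), ERG25 (YGR060W), ERG26 (YGL001C), ERG27 (YLR100W) and ERG28 (YER044C), taken by their systematic names for these steps of the pathway. These genes, and the lists of related genes below, were chosen with earlier results of these data known. All 9 were among the 6357 rows of the deposited count table and all 9 passed the filter on low counts, which kept 6137 rows. RNA had been sequenced from CAT-1, a strain used for fuel ethanol in Brazil, taken through 5 rounds of fed-batch fermentation on sugar cane molasses with acid treatment between rounds and sampled after 4 hours of the last round. There were 3 libraries from fermentations with the antifoam labelled Ind_B, 3 with the antifoam labelled Ind_Z and 3 control libraries. Strain, medium, acid treatment and sampling time were common to all 3 groups. The labels give neither the composition nor the dose of the antifoams. They do not say whether replicates were separate cultures, so p-values measure the spread between these libraries, which may in part be technical.

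Ergosterol is the main sterol of yeast membranes, and its synthesis costs molecular oxygen at several steps. Erg1 opens the oxygen-dependent stretch of the pathway by making squalene epoxide, Erg11 is a haem enzyme of the cytochrome P450 class that removes the C-14 methyl group, and Erg25 is an iron enzyme that oxidises the C-4 methyl groups. The zinc cluster factors Upc2 and Ecm22 bind sterol response elements in promoters of the pathway and are known to raise transcription when sterols run low.

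The sterol response element searched for was TCGTATA on either strand. From 250 bases before to 50 after the annotated start, 4.15% of 6001 promoters in the RefSeq genome R64 (strain S288C) held it, and 0 of the 9 genes did. In a window from 600 bases before the start, chosen after that result was seen, 8.88% of 5999 promoters held a match, and 3 of the 9 genes did, ERG1, ERG25 and ERG28. Of 15 other genes of the pathway, 3 held the element in the first window and 5 in the longer one. Whether a match bears on the level of a gene was not tested. The stretches of the 3 genes are printed. Each holds its matches in capitals with 20 bases on either side, 5′ to 3′ on the strand of the gene, and the capitals in ERG28 are the reverse complement of the element.
ERG1, chrVII:848779-848825, minus strand, R64: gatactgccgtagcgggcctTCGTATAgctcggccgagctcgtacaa
ERG25, chrVII:610061-610127, plus strand, R64: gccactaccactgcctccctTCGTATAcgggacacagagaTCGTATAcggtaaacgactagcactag
ERG28, chrV:238268-238314, minus strand, R64: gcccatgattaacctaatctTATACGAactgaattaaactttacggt
Counted with −1 for the base before the start codon, the element began at −382 in ERG1, at −483 and −463 in ERG25 and at −278 in ERG28. ERG11, called lower with both antifoams as ERG25 and ERG28 were, had no match to these letters in the longer window. The core of the site of the oxygen repressor Rox1, ATTGTT on either strand, was in the 250-base window of ERG1, NCP1 and ERG26. These 3 of 9 are not above the share of 35.2% over all promoters. In the longer window 5 of 9 held it, against 58.8%. ERG1 held 4 matches, and matches per promoter were not compared with other genes. The Hap1 site, searched on either strand, was found in 0 of the 9 genes and in 0.133% of promoters. The build behind the counts is not named in the sources used here, and the CAT-1 sequence may differ from these stretches.

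Levels are given as CPM, the counts of a gene over the library's total after scaling by TMM factors, and differences are log2 fold changes ± SE from edgeR's quasi-likelihood fit to all 9 libraries. A gene was called at a Benjamini-Hochberg adjusted p under 0.05 over the 6137 rows tested. Totals ranged from 5900571 to 18245935 counts per library, and each of the 9 genes had at least 475 counts in every library. One control library, headed control13 in the table, stood apart: its Spearman correlation over genes with the other controls was 0.954 to 0.956, against 0.9945 between those 2, and all 9 genes were at their highest there. Most fold changes and calls are therefore given with and without it.

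Together the 9 genes made up 0.363% ± 0.0868 of all counts in Ind_B, 0.432% ± 0.0307 in Ind_Z and 0.689% ± 0.104 in control (SD, n = 3 each). Their summed level was 2569, 3393 and 3799 CPM in the Ind_B libraries 1 to 3 and 4262, 4864 and 4555 CPM in the Ind_Z libraries 1 to 3, against 7313, 5337 and 9485 CPM in control1, control12 and control13. All 6 antifoam libraries lay below all 3 control libraries, and all Ind_B libraries lay below all Ind_Z libraries. In bulk RNA, fewer cells with a transcript and less of it per cell cannot be told apart.

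**Figure D1:**
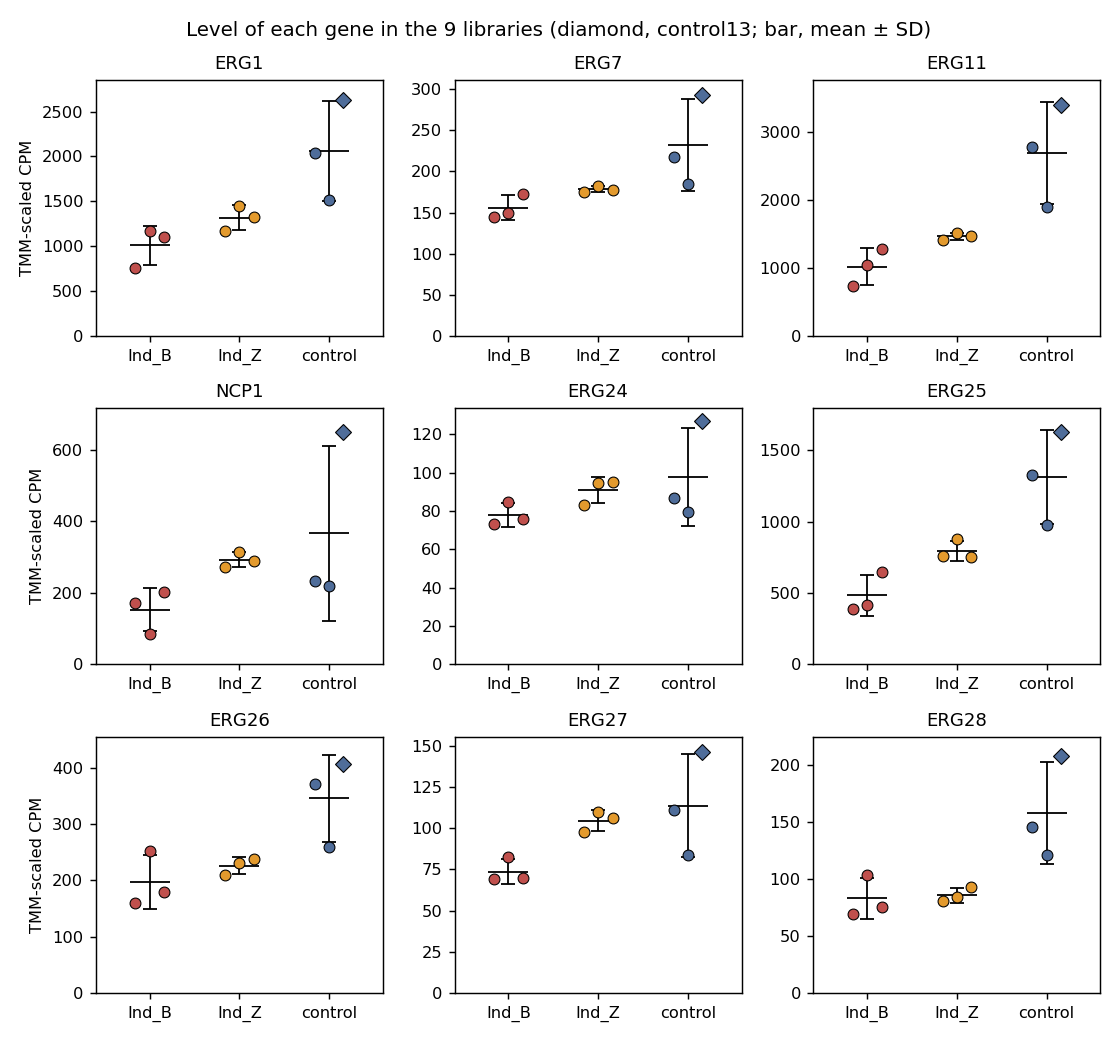
TMM-scaled CPM of each of the 9 genes (y axis) in Ind_B, Ind_Z and control (x axis), 1 point per library, with bars for mean ± SD (n = 3) and a diamond for control13. For ERG1, ERG7, ERG11, ERG25, ERG26 and ERG28 every antifoam library lies below every control library; for NCP1, ERG24 and ERG27 the Ind_Z libraries overlap the controls.

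Squalene epoxidase and the cyclase that follows it were both lower in every antifoam library, with the larger difference in the epoxidase gene. ERG1, encoding the epoxidase, was at 759, 1170 and 1100 CPM in the Ind_B libraries 1 to 3 and at 1170, 1450 and 1330 CPM in the Ind_Z libraries 1 to 3, against 2040, 1520 and 2630 CPM in control1, control12 and control13. No antifoam library reached the lowest control. The difference was −1.03 ± 0.24 for Ind_B (adjusted p = 0.102) and −0.65 ± 0.24 for Ind_Z (adjusted p = 0.189). Without control13 it was −0.83 ± 0.20 and −0.43 ± 0.20. ERG7, encoding lanosterol synthase, was at 156 ± 15.5 CPM in Ind_B and 178 ± 3.59 CPM in Ind_Z against 232 ± 55.1 CPM in control (SD, n = 3 each). Its difference was −0.57 ± 0.17 for Ind_B and −0.38 ± 0.17 for Ind_Z, and neither was called. Without control13 it was −0.38 ± 0.11 and −0.18 ± 0.12, again not called.

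Of the C-14 genes, ERG11 was the one that edgeR called in the fit to all 9 libraries, lower with both antifoams. ERG11, encoding lanosterol 14-alpha-demethylase, was at 737, 1040 and 1280 CPM in the Ind_B libraries 1 to 3 and at 1420, 1520 and 1470 CPM in the Ind_Z libraries 1 to 3, against 2780, 1900 and 3400 CPM in control1, control12 and control13. The 3 groups did not overlap, with Ind_B lowest and control highest. Its difference was −1.40 ± 0.26 for Ind_B (adjusted p = 0.0696) and −0.87 ± 0.26 for Ind_Z (adjusted p = 0.11). With both antifoams set against control it fell by 1.14 ± 0.21 on the log2 scale, to 45.5% of the control level (adjusted p = 0.0314).

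NCP1 encodes the reductase that passes electrons from NADPH to cytochrome P450 enzymes, Erg11 among them, and its libraries were ordered differently from those of ERG11. It was at 172, 85.2 and 201 CPM in the Ind_B libraries 1 to 3 and at 273, 315 and 290 CPM in the Ind_Z libraries 1 to 3, against 233, 218 and 648 CPM in control1, control12 and control13. All 3 Ind_Z libraries exceeded control1 and control12, and control13 alone lay above Ind_Z. The difference for Ind_Z against control was −0.32 ± 0.42 with all libraries and 0.38 ± 0.28 without control13, and it was called in neither fit. The control mean was 366 ± 244 CPM (SD, n = 3) and 225 CPM without control13. For Ind_B against control the difference was −1.25 ± 0.42 (adjusted p = 0.185), −0.56 ± 0.27 without control13 and −0.97 ± 0.43 without Ind_B replicate 2, the lowest library. ERG24, encoding the C-14 reductase, differed least from control, at 77.9 ± 6.08 CPM in Ind_B and 90.9 ± 6.91 CPM in Ind_Z against 97.9 ± 25.5 CPM in control.

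The C-4 demethylation genes encode an oxidase (ERG25), a dehydrogenase that also decarboxylates (ERG26), a keto-reductase (ERG27) and a protein that holds them together at the endoplasmic reticulum (ERG28). The oxidase and the scaffold gene were called lower with both antifoams, and the keto-reductase gene was close to its control level in the Ind_Z libraries. ERG25 was at 385, 420 and 646 CPM in the Ind_B libraries 1 to 3 and at 759, 876 and 754 CPM in the Ind_Z libraries 1 to 3, against 1330, 974 and 1630 CPM in control1, control12 and control13. The 3 groups did not overlap, as for ERG11. With both antifoams against control it fell by 1.08 ± 0.20 on the log2 scale, to 47.3% of the control level (adjusted p = 0.0309). ERG25 had the largest difference for Ind_B among the 9 genes, −1.44 ± 0.24 (adjusted p = 0.0558), and −0.72 ± 0.24 for Ind_Z (adjusted p = 0.149).

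ERG28 was at 69.6, 104 and 75.5 CPM in the Ind_B libraries 1 to 3 and at 80.4, 84 and 93.2 CPM in the Ind_Z libraries 1 to 3, against 146, 121 and 208 CPM in control1, control12 and control13. The antifoam groups overlapped each other and stayed below control. It fell by 0.90 ± 0.18 on the log2 scale with both antifoams against control, to 53.4% (adjusted p = 0.0327), with differences of −0.93 ± 0.21 for Ind_B and −0.88 ± 0.21 for Ind_Z. ERG26 was at 197 ± 48.8 CPM in Ind_B and 226 ± 14.6 CPM in Ind_Z against 345 ± 76.6 CPM in control, without overlap with control, and was not called (adjusted p = 0.0705 for both antifoams). ERG27 was at 73.7 ± 7.53 CPM in Ind_B and 104 ± 6.1 CPM in Ind_Z against 114 ± 31.1 CPM in control (SD, n = 3 each). The 3 Ind_B libraries lay below every control for ERG27, while the Ind_Z libraries overlapped control. No member overlapped another gene in the R64 annotation; the row YLR101C, whose number follows that of ERG27, is not in that annotation, was at 5.06 to 10.1 CPM, and its overlap was not checked.

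For Ind_B against control, edgeR called 0 of the 9 genes, beside 0.147% of all genes called. At an unadjusted p under 0.05 there were 8 of 9, beside 19.1% of all genes. DESeq2 called 8 of 9, beside 4.93% of all genes, and limma-voom with sample quality weights called 5, beside 3.49%. All 9 differences were negative, with a median of −0.93 against 0.01 over all genes tested, and the range was −1.44 to −0.32. For 8 of 9 the Ind_B libraries lay below every control, where 9.21% of all genes did so. Without control13 the median was −0.69 and edgeR called 0.728% of all genes, among them ERG11 (−1.21 ± 0.23, adjusted p = 0.0453) and ERG25 (−1.26 ± 0.22, adjusted p = 0.0348). Over the alternatives tried the adjusted p ranged from 1.08e-05 to 0.285 for ERG11 and from 2.56e-06 to 0.285 for ERG25.

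For Ind_Z against control, edgeR again called 0 of the 9, beside 2.13% of all genes. At an unadjusted p under 0.05 there were 6 of 9, beside 19.3% of all genes. DESeq2 called 2 of 9, beside 7.3%, and limma-voom called 4, where it called 34.7% of all genes, a share close to that of the 9. All 9 differences were negative with all libraries in the fit, with a median of −0.61 against −0.03 over all genes. Without control13, 6 of 9 were negative and the median was −0.43. NCP1, ERG24 and ERG27 turned positive in that fit, at 0.38, 0.13 and 0.10, while ERG28 was called at −0.63 ± 0.16 (adjusted p = 0.0223, within a range of 0.00243 to 0.228 over the alternatives). That fit called 19.6% of all genes, so 1 of 9 is not above the share over all genes. The Ind_Z libraries lay below every control for 6 of 9 genes, against 12.6% of all genes.

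With both antifoams set against control, edgeR called 3 of the 9 genes, all lower, beside 1.84% of all genes called and 0.57% called lower. These were ERG11, ERG25 and ERG28, and the same 3 genes were called without control13, at −0.94, −0.90 and −0.67, beside 3.01% of all genes. For 6 of 9 genes the 6 antifoam libraries lay below every control, against 2.92% of all genes. The 3 calls ended without control1, without Ind_B replicate 1 and without any 1 of the Ind_Z replicates, where 0 of the 9 were called. Those fits called few genes of any kind, 0% without control1 and 0.0326% without Ind_B replicate 1. Without Ind_Z replicates 1, 2 and 3 in turn they called 0.766%, 0.0162% and 0.0162% of all genes. Without control12, 7 were called, beside 5.29% of all genes. Without Ind_B replicate 2 the 1 call was ERG28, beside 0.746% of all genes, and without Ind_B replicate 3 the calls were ERG11 and ERG25, beside 1.5%. Both comparisons with single antifoams share the 3 control libraries with this one.

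**Figure D2:**
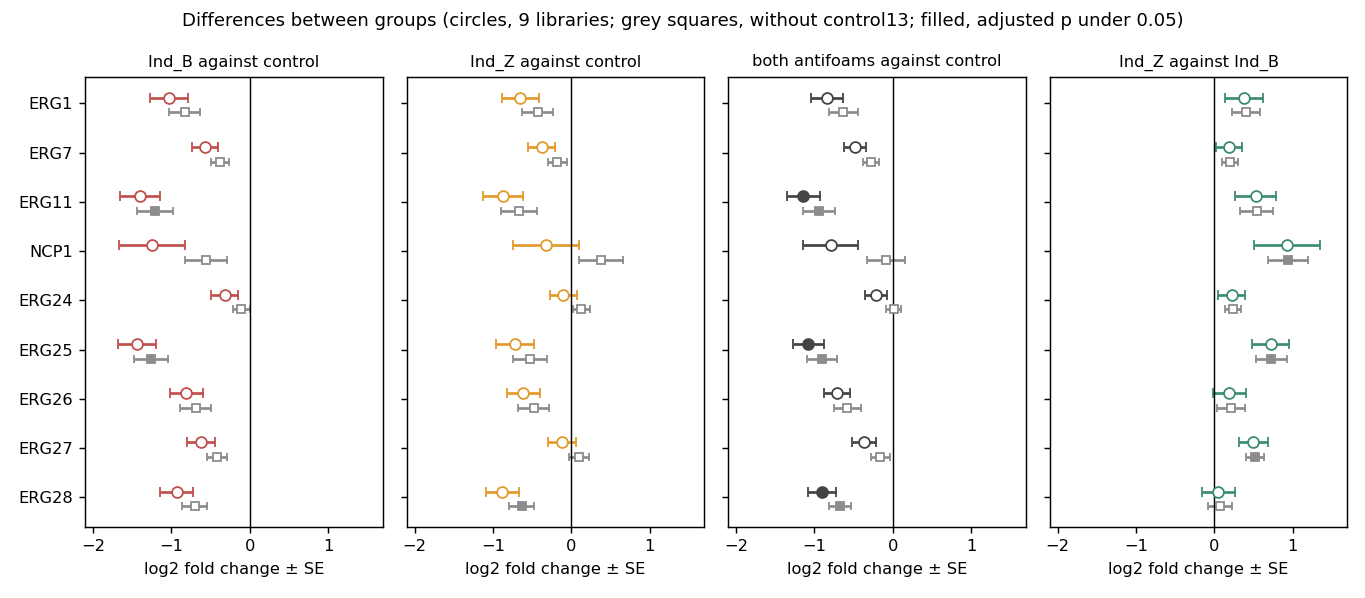
Log2 fold change ± SE (x axis) of the 9 genes (rows) in 4 comparisons (panels); circles are from the fit to 9 libraries, grey squares from the fit without control13, and filled symbols have an adjusted p under 0.05. ERG11, ERG25 and ERG28 are filled for both antifoams against control in both fits, and NCP1, ERG24 and ERG27 cross 0 for Ind_Z without control13.

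Between the antifoams, all 9 genes were higher in Ind_Z than in Ind_B by the fitted value, with a median of 0.38 against −0.03 over all genes, and edgeR called 0 of 9, beside 0.424% of all genes. At an unadjusted p under 0.05 there were 2, ERG25 and ERG27, beside 25.5% of all genes. DESeq2 called 1 of 9, beside 10.3%, and limma-voom called 5, beside 24.5%, so the first 2 of these counts are no higher than, or close to, the share over all genes. NCP1 had the largest difference, 0.93 ± 0.42, followed by ERG25 at 0.72 ± 0.24, and ERG28 the smallest, 0.05 ± 0.21. For 5 of 9 genes every Ind_Z library lay above every Ind_B library, against 21.4% of all genes. Without control13, which enters this comparison only through the shared estimate of the spread and the scaling, edgeR called NCP1 (0.94 ± 0.25), ERG25 (0.73 ± 0.20) and ERG27 (0.52 ± 0.12), beside 23.5% of all genes. Their adjusted p were 0.0219, 0.0262 and 0.0126 there. Over the alternatives these ranged from 0.0122 to 0.413, from 0.00458 to 0.327 and from 0.00991 to 0.339. As a share of the 9 genes, the calls without control13 are close to the 23.5% over all genes.

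The fitted differences from control were unequal in size among the 9 genes. Ratios within each library, where scaling between libraries cancels, were also taken for a few pairs. These pairs were not part of the plan, other pairs were not computed, and no ratio was tested. The ratio of ERG25 to ERG27, as counts per kilobase of coding length, was 6.26, 5.72 and 10.4 in the Ind_B libraries 1 to 3 and 8.71, 8.97 and 7.98 in the Ind_Z libraries 1 to 3, against 13.5, 13.0 and 12.5 in control1, control12 and control13. Here control13 lay with the other controls, and no antifoam library reached them. ERG11 over ERG24 averaged 10.8 ± 2.9 in Ind_B and 13.4 ± 0.702 in Ind_Z against 22.7 ± 3.39 in control, again without overlap. ERG1 over ERG7 averaged 9.55 ± 1.94 in Ind_B and 10.9 ± 0.944 in Ind_Z against 13.0 ± 0.862 in control, also without overlap. The other 2 ratios computed overlapped between groups. ERG25 over ERG26 was 2.72, 1.88 and 4.06 in Ind_B and 4.09, 4.3 and 3.58 in Ind_Z, against 4.06, 4.25 and 4.53 in control. ERG11 over NCP1 was 5.58, 15.9 and 8.28 in Ind_B and 6.77, 6.31 and 6.6 in Ind_Z, against 15.6, 11.3 and 6.84 in control, with control13 beside the Ind_Z libraries. A ratio shows unequal change and not which of its genes changed.

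**Figure D3:**
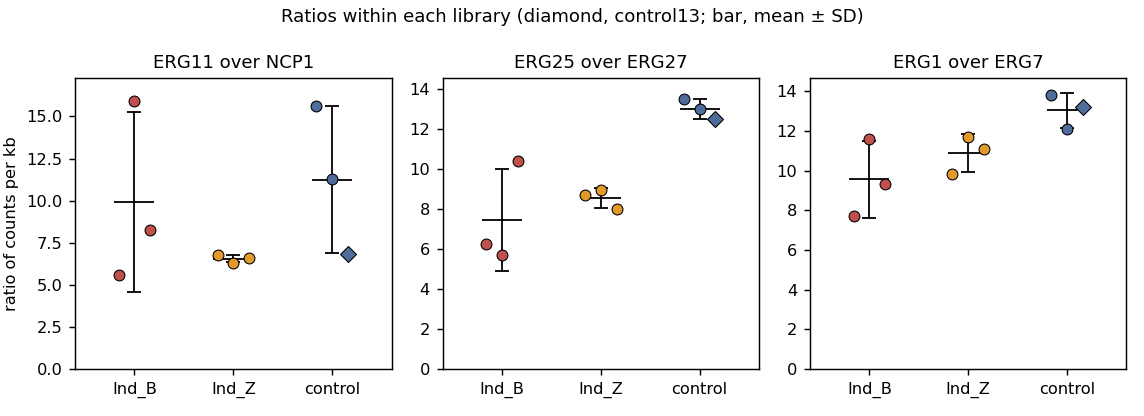
Ratios of counts per kilobase of coding length (y axis) between pairs of genes in each library, by group (x axis), with bars for mean ± SD (n = 3) and a diamond for control13. ERG25 over ERG27 is 12.5 to 13.5 in control and at most 10.4 with antifoam, and ERG11 over NCP1 overlaps between groups.

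Per kilobase of coding length, the genes of the 3 enzymes that use oxygen were the most abundant of the 9 in every group. In Ind_B the order was led by ERG1 at 678 ± 148, ERG11 at 640 ± 171 and ERG25 at 520 ± 152 CPM per kilobase, and in Ind_Z by ERG11 at 922 ± 33.6, ERG1 at 884 ± 94.7 and ERG25 at 856 ± 74.3. In control it was led by ERG11 at 1690 ± 475, ERG25 at 1410 ± 352 and ERG1 at 1380 ± 373 CPM per kilobase (SD, n = 3 each). Neighbours in each of these orders differed by less than the larger of their SDs, which include the spread between libraries. As shares of the summed per-kilobase level of the 9 genes within each library, ERG11 led in all 3 controls, at 29.9% ± 1.07 against 25.2% ± 0.666 for ERG25 and 24.6% ± 0.208 for ERG1. In the antifoam libraries the leading gene was not the same in every library of a group, ERG1 taking 27.2% ± 2.52 and ERG11 25.5% ± 2.29 in Ind_B, and ERG1 taking 25.5% ± 1.15 and ERG11 26.7% ± 0.8 in Ind_Z. ERG26 and ERG28 came next, at 188 ± 46.5 and 185 ± 40.7 in Ind_B, 215 ± 13.9 and 192 ± 14.8 in Ind_Z, and 329 ± 73 and 354 ± 99.7 in control. NCP1, ERG7, ERG27 and ERG24 followed at 59.1 to 73.7 in Ind_B, 69 to 141 in Ind_Z and 74.3 to 176 in control, ERG24 being lowest by mean in each group. ERG1, ERG11 and ERG25 together took 73.5% ± 3.75 of the summed per-kilobase level in Ind_B and 76.9% ± 0.9 in Ind_Z against 79.7% ± 1.19 in control, with every antifoam library below every control.

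The other steps of the pathway gave counts in the same direction. All 10 mevalonate and squalene genes had negative fitted values with both antifoams against control, with a median of −0.65, and 3 were called lower. They were MVD1, encoding mevalonate pyrophosphate decarboxylase (−1.24 ± 0.18), HMG1, encoding an HMG-CoA reductase (−1.0 ± 0.20), and ERG10, encoding acetoacetyl-CoA thiolase (−1.23 ± 0.25). Among the 5 genes of the last ergosterol steps 4 were called lower, and the median of the 5 was −1.10. ERG5, encoding the P450 enzyme that desaturates the sterol side chain, had the largest difference of the 5 at −1.60 ± 0.23 (adjusted p = 0.0217). The others were ERG2 at −0.88 ± 0.17, ERG3 at −1.10 ± 0.21 and ERG6 at −1.12 ± 0.23, which encode an isomerase, a desaturase and a methyltransferase of sterols. ERG4, which encodes the final reductase, was at 544 ± 57.9 CPM in Ind_B and 631 ± 35.8 CPM in Ind_Z against 601 ± 186 CPM in control. These calls too ended without control1, without Ind_B replicate 1, without Ind_Z replicate 2 and without Ind_Z replicate 3, where 0 of the 15 genes were called. Each of those fits called at most 0.0326% of all genes. Without control13, ERG10 was not called (−0.84 ± 0.20, adjusted p = 0.0542), and 2 of the 10 and 4 of the 5 genes were. Over the 9 genes and these 15, 10 of 24 were called lower, beside 0.57% of all genes, and all 24 fitted values were negative. Without control13 the fitted values were negative for 8 of the 9, 10 of the 10 and 4 of the 5 genes, ERG24 and ERG4 being the exceptions.

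Of 4 partner proteins of the oxygen-using enzymes, 1 had a gene that edgeR called lower with both antifoams. CYB5, encoding cytochrome b5, an electron donor to sterol oxidases, fell by 1.36 ± 0.17 on the log2 scale with both antifoams (adjusted p = 0.0217). It was called without control13 as well (−1.15 ± 0.15), and was not called without the same 4 libraries. ERG29, a gene of sterol synthesis, was at 29.4 ± 1.85 CPM in Ind_B and 28.2 ± 2.18 CPM in Ind_Z against 41.9 ± 7.99 CPM in control, with every antifoam library below every control and a difference of −0.54 ± 0.13 for both antifoams that was not called (adjusted p = 0.0629). DAP1, whose product binds haem and supports Erg11, was at 25 ± 6.99 CPM in Ind_B and 32 ± 4.28 CPM in Ind_Z against 41.2 ± 9.92 CPM in control. Its difference for both antifoams was −0.54 ± 0.19, not called (adjusted p = 0.188). CBR1, encoding a cytochrome b5 reductase, was at 167 ± 15.9 CPM in Ind_B and 235 ± 17.8 CPM in Ind_Z against 196 ± 53.3 CPM in control. Its difference for Ind_Z was 0.27 ± 0.18, not called (adjusted p = 0.455). Without control13 its control mean was 165 CPM, below the Ind_Z libraries at 215, 240 and 250 CPM. EdgeR's fit without control13 called 1 of the 4 partner genes higher for Ind_Z against control, beside 19.6% of all genes. Of the 8 haem synthesis genes edgeR's fit to all 9 libraries called 0 in each of the 4 comparisons. At an unadjusted p under 0.05 that fit held 1 to 3 of them in a comparison, beside 1016 to 1564 of all 6137 genes. Without control13 edgeR called 1 higher for Ind_Z against control, beside 19.6% of all genes. For Ind_Z against Ind_B it then called 2 higher, beside 23.5%. The fit to the 6 antifoam libraries alone also called 2 higher, beside 20.5%, and with a replicate block 2, beside 9.37%. DESeq2 called 0 or 1, beside 4.93% to 10.3% of all genes, and limma-voom called 0 or 3. The 3 were called higher for Ind_Z against control and for Ind_Z against Ind_B, where limma-voom called 34.7% and 24.5% of all genes.

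**Figure D4:**
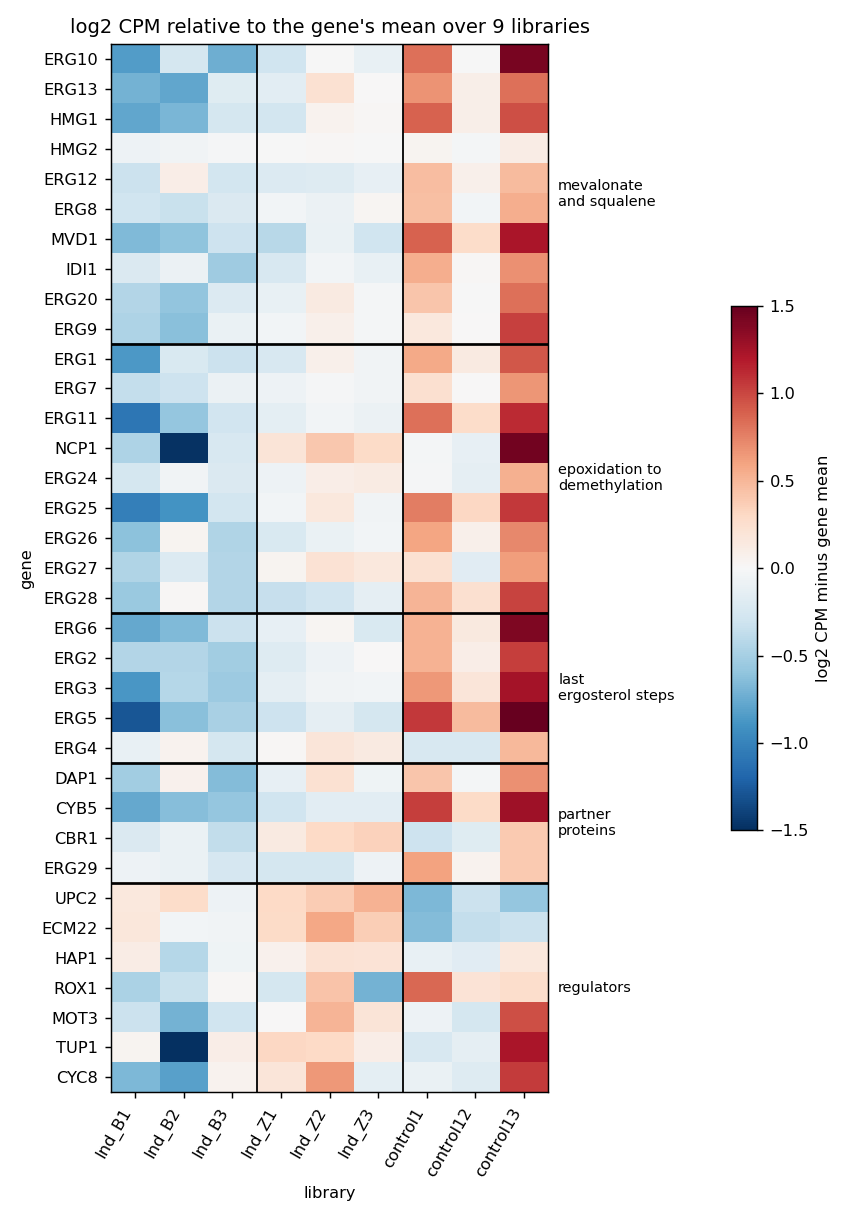
Log2 CPM of each gene (rows, by step or role) in each library (columns) minus the gene's mean over 9 libraries, from −1.5 in blue to 1.5 in red. Most pathway genes are lowest in Ind_B and highest in control13, while UPC2 and ECM22 are lowest in the control libraries.

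Against control, the genes of the activators UPC2 and ECM22 moved opposite to the pathway. Between the antifoams their fitted values went the same way as those of the 9 genes, higher in Ind_Z than in Ind_B. UPC2 was at 253, 274 and 215 CPM in the Ind_B libraries 1 to 3 and at 278, 296 and 326 CPM in the Ind_Z libraries 1 to 3, against 142, 182 and 152 CPM in control1, control12 and control13. ECM22 was at 52.1, 45 and 44.7 CPM in the Ind_B libraries 1 to 3 and at 56.4, 68.8 and 59.8 CPM in the Ind_Z libraries 1 to 3, against 29.4, 36 and 36.7 CPM in control1, control12 and control13. For both genes every antifoam library lay above every control, as for 4.94% of all genes, and control13 lay within the range of the other controls or close to it. With Ind_Z, UPC2 rose by 0.92 ± 0.14 and ECM22 by 0.86 ± 0.13 on the log2 scale (adjusted p = 0.0136 for each). With Ind_B the differences were 0.64 (adjusted p = 0.0909) and 0.48 (adjusted p = 0.136), not called. Ind_Z against Ind_B gave 0.28 ± 0.14 for UPC2 and 0.38 ± 0.13 for ECM22, not called (adjusted p = 0.242 and 0.119). For both genes every Ind_Z library lay above every Ind_B library, as for 21.4% of all genes. The Ind_Z calls of both genes were made in 14 of 17 alternatives, with adjusted p up to 0.106 for UPC2 and 0.0915 for ECM22. The calls ended without control1, without Ind_Z replicate 2 and without Ind_Z replicate 3, where 0.358%, 0.34% and 0.259% of all genes were called. Both genes were called without control13 (0.89 ± 0.15 and 0.91 ± 0.14). They were the 2 of 7 regulators called, beside 1.73% of all genes called higher with Ind_Z. ROX1, HAP1, MOT3, TUP1 and CYC8 were not called in the 4 comparisons by edgeR's fit to all 9 libraries. Without control13 edgeR called 2 of the 7 regulators higher for Ind_Z against Ind_B, beside 23.5% of all genes. ECM22 was among them (adjusted p = 0.0368) and UPC2 was not (adjusted p = 0.12). Limma-voom called 1 of the 7 lower for Ind_Z against control and for both antifoams, beside 34.7% and 13.2% of all genes.

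**Figure D5:**
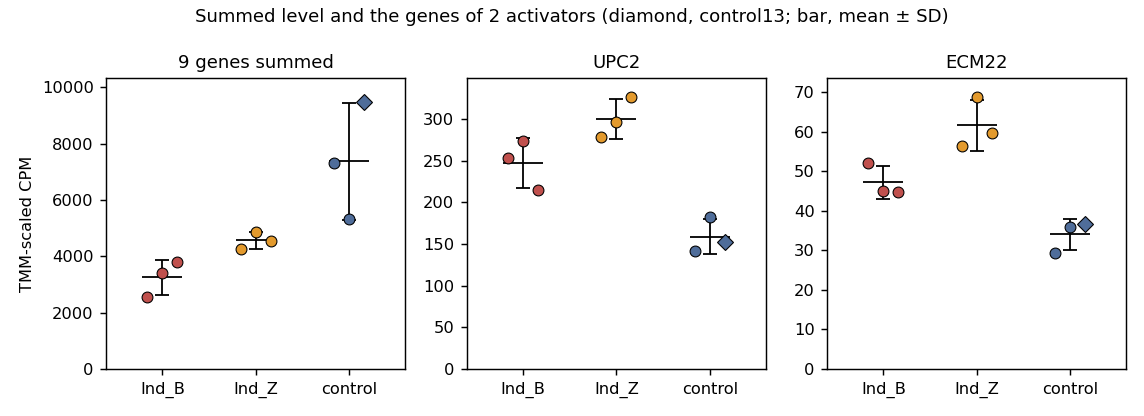
TMM-scaled CPM (y axis) of the 9 genes summed, of UPC2 and of ECM22 in Ind_B, Ind_Z and control (x axis), 1 point per library, with bars for mean ± SD (n = 3) and a diamond for control13. The summed level is at most 4864 CPM in the antifoam libraries and at least 5337 CPM in the controls, while UPC2 and ECM22 lie above the controls in all of them.

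Across the 9 libraries the 8 genes other than NCP1 varied together, with Pearson correlations of log2 CPM between 0.685 and 0.978 (median 0.851 over 28 pairs) and the highest for ERG11 with ERG25. The 8 pairs with NCP1 had a median of 0.718, and without control13 the medians were 0.728 and 0.432. Without control13 the lowest of the 28 pairs was ERG24 with ERG28, at 0.323. The libraries share their scaling and their group differences, and the values are a description. ERG7 was the closest to the mean of the other 8, ranking 8 of 6129 genes at r = 0.973, followed by ERG1 (rank 16) and ERG11 (rank 17), while NCP1 ranked 525. The nearest neighbours of ERG11 were ERG5, ERG25 and ERG1, at 0.976 to 0.991. Those of NCP1 were YGR026W, MSB2 and SCW4, at 0.991 to 0.994, with no gene of the pathway among them. NCP1 stood farthest from its mean in control13 (1.45 on the log2 scale) and Ind_B2 (−1.48), and its correlations lean on these 2 libraries. Ranks and nearest neighbours were computed over all 9 libraries only, not without control13. The nearest neighbours of ERG24 and of ERG27 held no gene of the pathway either.

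Outside the 9, the genes most like their mean profile over the 9 libraries were ERG3 (r = 0.99), the steryl ester hydrolase gene YEH1 (0.983), ERG6 (0.982), the lactate dehydrogenase gene CYB2 (0.978), STF1 and the fatty acid synthase gene FAS1 (0.977 each). MTC7 (0.973), the acetyl-CoA carboxylase gene ACC1 (0.972), the farnesyl pyrophosphate synthase gene ERG20 (0.97) and COR1, encoding a subunit of respiratory complex III (0.969), completed the 10. Without control13, 7 of these were again among the closest 10, and with Spearman's correlation 4 were.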

How the data were processed

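The deposited table holds raw counts of reads, as the authors made them, for 6357 features in 9 libraries. TopHat2 2.0.9 and HTSeq 0.6.0 are named, without roles, per the submitters' processing notes. The sources used here name no build, annotation or strand setting. Columns were matched to samples by name; control12 and control13 match no single title and were used as control libraries without a replicate number. The tests used edgeR 4.0.16 in R 4.3.3, with filterByExpr at its defaults (6137 rows kept), TMM scaling, 1 mean per group in a quasi-likelihood fit to all 9 libraries, and Benjamini-Hochberg adjustment over all rows tested. The contrast of both antifoams is the mean of their coefficients minus control. SE was taken from the F statistic. Log2 CPM used a prior count of 2. Coding lengths and promoters came from the RefSeq R64 genome and annotation.

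Every pair of replicates differed by more than sampling noise (chi-square per degree of freedom 12.1 to 159), so none was merged. The code was tested on simulated counts. Alternatives were DESeq2 1.42.0, limma-voom (limma 3.58.1), RLE and upper-quartile factors, other filters, smaller fits, a replicate block and leaving out each library. The rule for names took the 9 members, the called genes of 5 lists (34 genes) and the 10 closest profiles. Members and lists were chosen with earlier results of these data known. A planned search of protein sequences was not run. Named after their values were seen were YLR101C, the uncalled list genes ERG4, DAP1, CBR1, ERG29, ROX1, HAP1, MOT3, TUP1 and CYC8, and the nearest genes of ERG11 and NCP1.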

Additional observations from a re-analysis of the deposited data

How the results depend on the processing

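The 9 genes kept negative fitted values for Ind_B against control in all alternatives. Beside the main counts (9, 131, 26 and 113 genes called for Ind_B against control, Ind_Z against control, Ind_Z against Ind_B and both antifoams against control, with 0, 0, 0 and 3 of the 9 genes), DESeq2 called 302, 447, 631 and 391 with 8, 2, 1 and 6 of the 9. Limma-voom with sample quality weights, which gave control13 a weight of 0.144, called 214, 2131, 1501 and 813 with 5, 4, 5 and 6. Upper-quartile factors called 19 genes for Ind_B against control with 1 of the 9. A mean count of at least 50 left 14 calls for Ind_Z against Ind_B. Fits to the libraries of a comparison alone called 1, 59 and 1251 genes, with 3 of the 9 for Ind_Z against Ind_B. Leaving out each library in turn, the ranges were 0 to 332, 16 to 1213, 0 to 1453 and 0 to 325 genes, with 0 to 7, 0 to 2, 0 to 3 and 0 to 7 of the 9. The cause of these moves was not tested.

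For the replicate block, only the 6 antifoam columns carry numbers; it called 572 genes and 2 of the 9 for Ind_Z against Ind_B, where the fit to the same libraries without it called 1251. Same-numbered libraries deviated with correlations of −0.442 to −0.0229 and 0 of 6 was closest to its own number. The check thus gave no sign of a pairing by number. With deviations from means of 3 libraries it cannot exclude a shared run or batch. No paired analysis was possible for the comparisons with control because 2 control columns carry no replicate number. Signs reversed for Ind_Z against control without control13 (NCP1 0.38, ERG24 0.13 and ERG27 0.1, the lowest values being −0.59, −0.23 and −0.29 without control12) and with limma-voom (0.29, 0.09, 0.07), and for ERG24 with both antifoams without control13 (0.0098, the lowest being −0.34 without control12). ERG28 reversed for Ind_Z against Ind_B with upper-quartile factors (−0.03) and without Ind_B replicate 1 (−0.06), Ind_B replicate 3 (−0.0032) or Ind_Z replicate 3 (−0.0089), the highest value being 0.24 without Ind_B replicate 2. Of the values for single genes, 1050 kept sign and call, 117 lost a call, 114 gained one and 11 reversed. Each of the 9 genes had 475 counts or more per library.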
